A study of Homo sapiens with 7 samples.

Results

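The imprinted region at the tip of chromosome 11 (band 11p15) was examined in HCT116 cells through 7 named genes, out of 64440 annotated genes, and through every peak of 6 ChIP-seq lists that lies in a 1000000-bp window, chr11:1950001-2950000 of hg19. The genes are H19, IGF2, KCNQ1, KCNQ1OT1, CDKN1C, PHLDA2 and SLC22A18. They were chosen by name and not by a rule on measured values, but with earlier results of these data known. The window held 158 of the 240889 deposited peaks.

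In PIXUL-ChIP-seq, HCT116 cells, an established human colorectal carcinoma line, were cross-linked in a microplate and sheared by ultrasound, and the chromatin was precipitated with 1 antibody per library. The series holds 7 libraries, each from a single well that held 200000 cells in 100 µl and was sonicated for 6 min, for H3K4me1, H3K4me3, H3K9Ac, H3K27Ac, H3K27me3, H3K36me3 and CTCF. Peak lists for 6 of them were used, and H3K27Ac is not analysed here. With 1 library per antibody, 1 line and no second condition there was no replicate error and no contrast to test, so all values below describe these libraries only.

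Imprinted genes are expressed from the copy inherited from 1 parent. At the H19/IGF2 end of the region, a control region upstream of H19 is methylated on the paternal copy, and CTCF, a zinc-finger protein that binds a short DNA sequence and can insulate enhancers from promoters, binds the unmethylated maternal copy. H19 is a maternally expressed non-coding RNA, and IGF2 encodes a paternally expressed fetal growth factor. At the KCNQ1 end, the promoter of the antisense RNA KCNQ1OT1 acts as the second control region: the RNA is made from the paternal copy, on which KCNQ1, CDKN1C, PHLDA2 and SLC22A18 are silenced. A peak list sums both copies, so the parental copies could not be told apart in any value below.

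The H19/IGF2 control region is known for repeated CTCF sites, so their sequences come first. The 14-base core of these repeats, CCGCNNGGNGGCAG, was searched on both strands of hg19, apart from the shorter CTCF core sequence of 12 bases that was used for the whole CTCF list. The longer core occurred 8 times in the window, and 5 of these matches lay within H19, in an intron of its canonical transcript, all on the minus strand. They are shown 5′ to 3′ on that strand, with the core in capitals and 13 bases on each side, in order of distance upstream of the most common 5′ end of the H19 transcripts.
H19 repeat at 2126 bp, core at chr11:2021198-2021211: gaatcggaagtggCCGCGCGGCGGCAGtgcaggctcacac
H19 repeat at 2938 bp, core at chr11:2022010-2022023: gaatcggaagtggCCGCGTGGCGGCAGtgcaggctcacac
H19 repeat at 4371 bp, core at chr11:2023443-2023456: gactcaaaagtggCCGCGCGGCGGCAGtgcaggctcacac
H19 repeat at 4772 bp, core at chr11:2023844-2023857: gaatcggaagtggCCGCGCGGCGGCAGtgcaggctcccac
H19 repeat at 5177 bp, core at chr11:2024249-2024262: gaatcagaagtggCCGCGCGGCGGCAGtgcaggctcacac

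A CTCF peak, chr11:2019401-2023766, contained 3 of these 5 matches. It ended 78 bp before the start of the fourth match and 483 bp before that of the fifth. The other 3 matches of the window, in INS, in an intron of KCNQ1 and between CDKN1C and SLC22A18AS, lay 3775 bp, 27763 bp and 714 bp from the nearest CTCF peak.

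**Figure D1:**
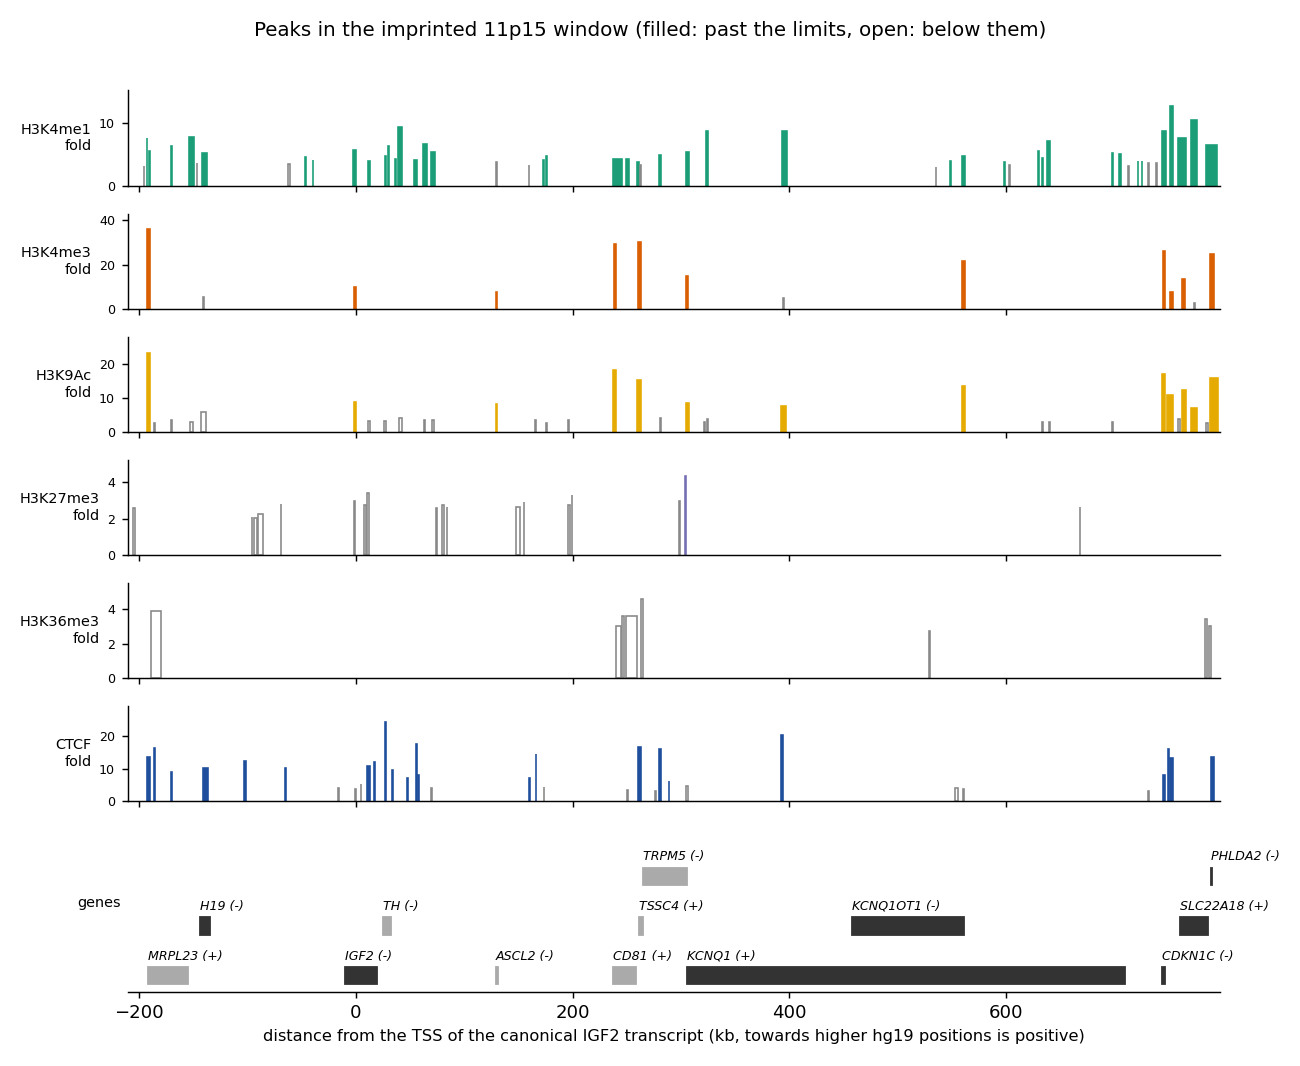
Peaks of the 6 lists in the window, drawn to scale against the distance in kb from the TSS of the canonical IGF2 transcript, with linear fold enrichment as height, genes below (members dark, others grey), filled bars for peaks past the limits and open bars for peaks below them. The 11 H3K4me3 peaks past the limits sit within 1000 bp of a canonical TSS with 1 exception. No peak of any list that passed the limits lies across 150956 bp of KCNQ1, and the single filled H3K27me3 peak is at the TRPM5/KCNQ1 promoter.

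A peak was kept where it passed the q-value and fold-enrichment limits of the study's methods, which ask of H3K4me1 and H3K27me3 an enrichment above 2-fold at q below 1e-03, and of the other marks one above 5-fold at q below 1e-10. The methods name no limits for CTCF, and it was given the second pair. Fold enrichment is the linear ratio of signal to local background that MACS2 wrote for each peak. Of the 158 peaks, 88 were kept.

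The window was rich in H3K4me1 and CTCF peaks. H3K4me1, a mark of enhancers and promoter flanks, had 40 kept peaks that covered 9.97% of the window, against a median of 6 peaks over all 3065 tiles of 1 Mb in the genome, and 3.59% of tiles held as many. CTCF had 23 kept peaks against a median of 7, and 3.88% of tiles held as many. By length, the CTCF peaks covered 3.09% of the window, and 1.11% of tiles had as much. H3K4me3, a mark of active promoters, had 11 kept peaks against a median of 2, and H3K9Ac, an acetylation of active chromatin, had 13 against a median of 2. H3K27me3, the Polycomb repression mark, had 1 kept peak of 18 deposited, and H3K36me3, which marks transcribed gene bodies, had 0 of 8. For both marks the median over all tiles was 0 kept peaks. The limits kept only 2.81% of the whole H3K27me3 list and 0.225% of the whole H3K36me3 list.

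The window is also dense in genes, with 15 TSSs of protein-coding genes against a median of 4 per tile. Among the 167 other tiles within 2 coding TSSs of that number, the median was 23 H3K4me1 peaks and 15 CTCF peaks. As many H3K4me1 peaks as in the window were found in 6.59% of those tiles, as many CTCF peaks in 10.2%, as many H3K9Ac peaks in 18.6% and as many H3K4me3 peaks in 30.5%. The tile with the nearest counts over all marks was chr14:99950001-100950000, followed by chr1:8950001-9950000 and chr12:53950001-54950000. The peaks of the window were also richer in G and C than those of the whole lists, with a median of 63.0% against 46.7% for CTCF and 63.3% against 49.3% for H3K4me1, and the part of base composition in the peak counts was not tested.

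**Figure D2:**
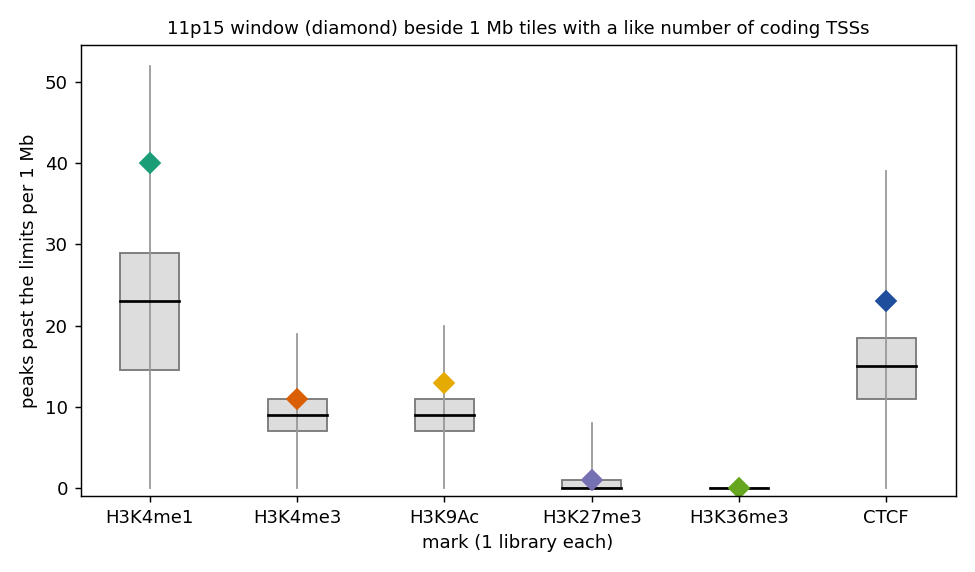
Number of kept peaks per 1 Mb for each mark, on a linear axis. Diamonds are the 11p15 window, boxes span the middle of the 167 tiles with a like number of coding TSSs (lower to upper quartile, line at the median) and whiskers their whole range. The H3K4me1 and CTCF diamonds, at 40 and 23, lie above their boxes, as does H3K9Ac at 13, and H3K4me3 at 11 lies at the upper edge of its box.

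At promoters, 6 of the 7 genes had kept H3K4me1, H3K4me3 and H3K9Ac peaks within 1000 bp of the TSS of their canonical transcript. These were all 5 protein-coding genes and KCNQ1OT1, while H19 had none of any mark there. Over all 20162 protein-coding genes the shares were 49.1% for H3K4me1, 59.1% for H3K4me3 and 58.5% for H3K9Ac. Over all 18702 lncRNA genes they were 22.9% for H3K4me1, 19.5% for H3K4me3 and 20.5% for H3K9Ac. A kept CTCF peak was present at CDKN1C and PHLDA2, against 13.6% of coding and 8.35% of lncRNA genes. A kept H3K27me3 peak was present at KCNQ1 only among the 7, against 1.22% of coding and 1.09% of lncRNA genes. A kept H3K36me3 peak was present at 0 of the 7, against 0.298% of coding and 0.118% of lncRNA genes. With so few genes these counts are a description.

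**Figure D3:**
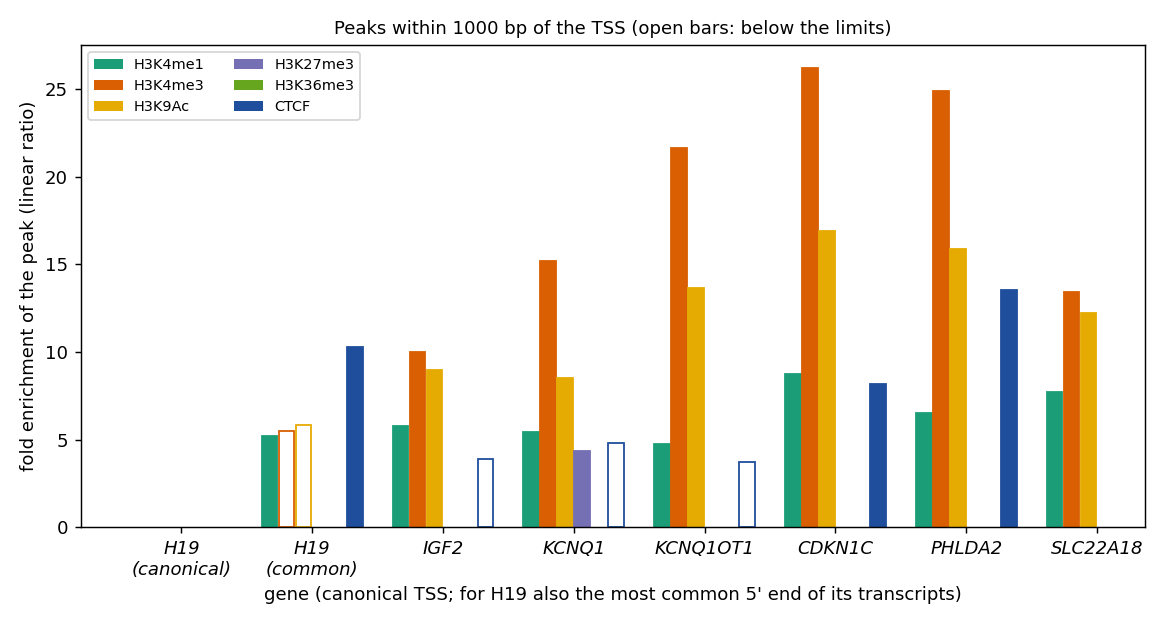
Fold enrichment, a linear ratio, of the strongest peak of each mark within 1000 bp of the TSS of each gene. Bars are single libraries without error, filled past the limits and open below them, and a missing bar means no listed peak. H3K4me3 ranged from 10.02 at IGF2 to 26.2 at CDKN1C, the canonical H19 TSS had no bar, and the most common H19 5′ end (marked common) had low open H3K4me3 and H3K9Ac bars beside filled H3K4me1 and CTCF bars.

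H19 (ENSG00000130600, minus strand, chr11:2016396-2025782) required care with its start. Its canonical transcript in GENCODE 44 begins at 2025782, where no deposited peak of any mark lay within 1000 bp. The 5′ end shared by the largest number of transcripts, 7 of 31, is at 2019072, 6710 bp downstream of the canonical one. Around that common end H3K4me1 had a kept peak of 5060 bp with a fold enrichment of 5.20, chr11:2018193-2023252. H3K4me3 had a peak of 5.47 and H3K9Ac one of 5.80, but their −log10 q values of 6.80 and 8.93 fell short of the limit. So at the most common H19 5′ end both active marks were deposited in the lists but not kept, unlike at the 6 other genes. Of the 24 annotated H19 start positions, 21 lay inside the H3K4me1 peak, 12 inside the CTCF peak and 0 inside a kept H3K4me3 or H3K9Ac peak.

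The CTCF peak over the H19 repeats spanned 4366 bp, was enriched 10.3-fold and had a −log10 q of 20.1. Its fold enrichment lay near the middle of the list, as 49.03% of the 24536 kept CTCF peaks had a lower one. In width, 99.9% were narrower, and it was the widest CTCF peak of the window. Each peak has 1 fold value for its whole length, so that the signal at the single repeats cannot be read from it. The control-region core is the form known from this region, so that matches here followed from the choice of the core. The H19 peak was the only kept CTCF peak of the genome with 3 matches to it. Of the others, 1 peak held 2 matches, 158 held 1 and 24376 held 0. None of the 4292 words of 75 bases, the read length, in the H19 peak occurred a second time in the window on either strand. The 40-base repeats shown above are nevertheless close to identical. Copies elsewhere in the genome were not searched. The H3K4me1 peak shared most of its length with this CTCF peak, and the H3K9Ac and H3K4me3 peaks below the limits covered the end nearer to H19.

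The number of CTCF peaks between H19 and IGF2 depended on which ends were used. From the canonical H19 5′ end to the 3′ end of IGF2, over 124559 bp, there were 2 kept peaks. The first, chr11:2057495-2058776, had a fold enrichment of 12.4 and the second, chr11:2095471-2095976, one of 10.1. A further peak at chr11:2144559-2145010, with 4.03, was below the limits. From the most common H19 5′ end the count was 3, because the peak over the repeats then falls between the genes, and from the 3′ end of H19 to the 5′ end of IGF2 it was 5. That last count adds chr11:2171275-2173783, with a fold enrichment of 10.96, and chr11:2177462-2178252, with 11.999, both inside the annotated extent of IGF2.

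**Figure D4:**
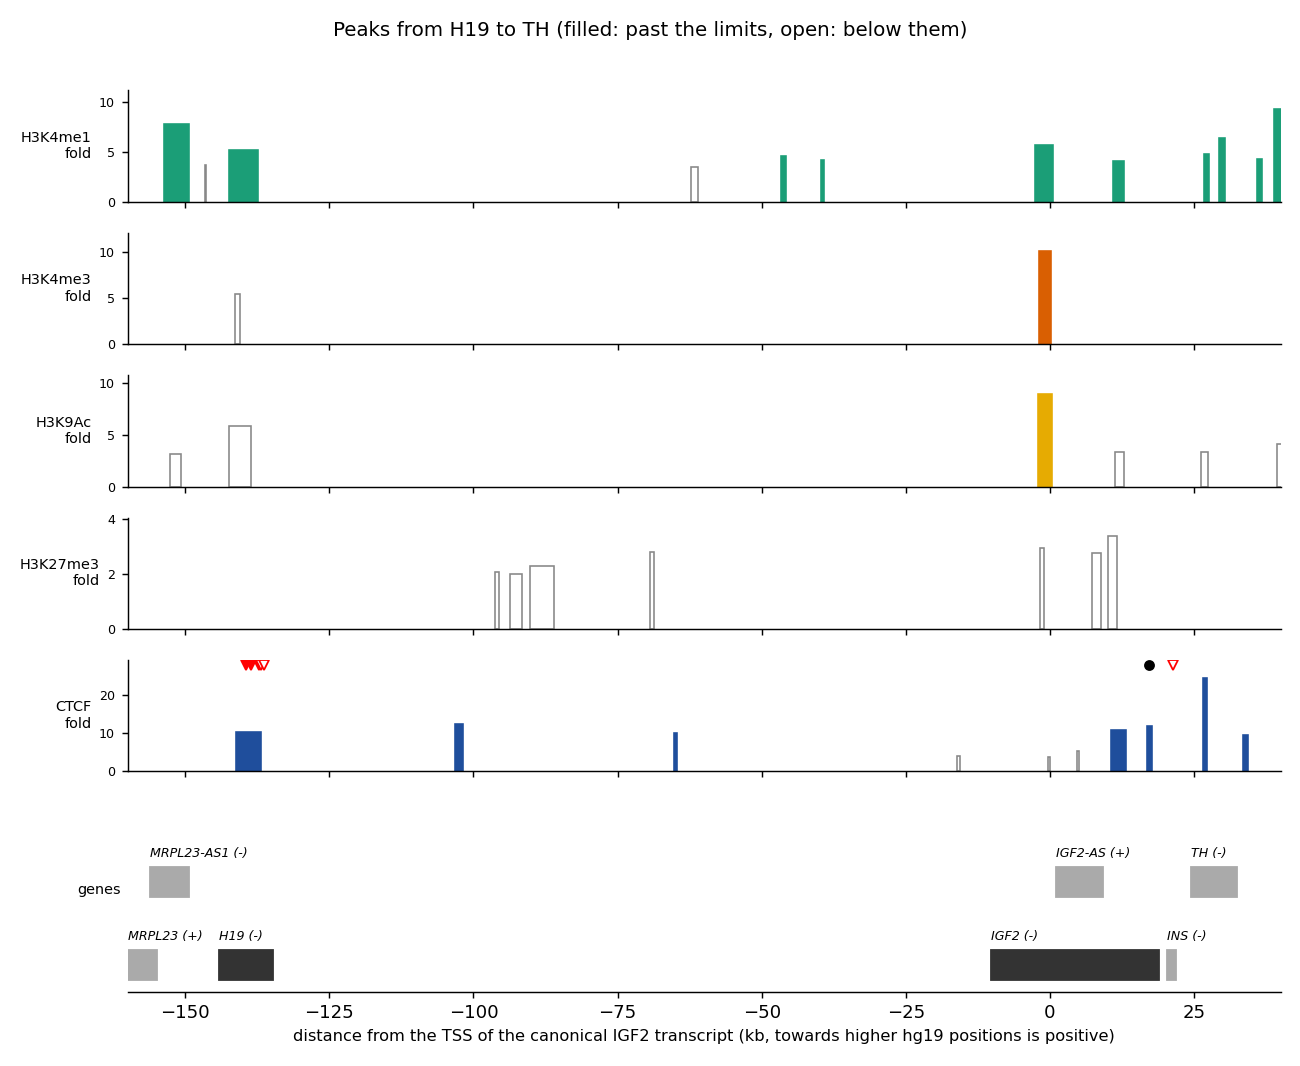
Peaks of 5 lists from H19 to TH against the distance in kb from the canonical IGF2 TSS, with linear fold enrichment as height; filled bars are past the limits, open bars below them. Red triangles are matches to the control-region core (filled inside a CTCF peak, open outside) and black dots matches to the 12-base core in a CTCF peak. A wide CTCF peak lies over 3 filled triangles in H19, 2 kept CTCF peaks stand between the genes, and the kept H3K4me3 and H3K9Ac peaks are at the IGF2 promoter only.

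IGF2 (ENSG00000167244, minus strand) had the lowest H3K4me3 of the 6 marked promoters. Its H3K4me3 peak, chr11:2158665-2160829, had a fold enrichment of 10.02, and only 5.36% of the 11924 coding TSSs with a kept H3K4me3 peak were lower. H3K9Ac was 8.95, higher than 13.5% of marked coding TSSs, and H3K4me1 was 5.75, higher than 78.6%. The promoter was thus low in the promoter marks and above the middle in H3K4me1. The H3K4me3 peak covered 2 of the 10 annotated IGF2 start positions, and the H3K4me1 and H3K9Ac peaks covered 5 each. The starts at 2162246, 2162468, 2179566 and 2179621 were in no deposited peak. A CTCF peak over the canonical TSS, with 3.87, and an H3K27me3 peak of 661 bp inside the H3K4me3 peak, with 2.96, were both below the limits.

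KCNQ1 (ENSG00000053918, plus strand) encodes a potassium channel subunit. It was the one gene of the 7 with kept H3K4me3 and H3K27me3 peaks within 1000 bp of its TSS. Its H3K4me3 peak had a fold enrichment of 15.2 and H3K9Ac one of 8.48. The H3K27me3 peak, chr11:2464065-2465359, was enriched 4.34-fold, with 4.20 as −log10 q, and ended 879 bp before the KCNQ1 TSS, so that it was not counted within 500 bp of the TSS. TRPM5, a cation channel gene transcribed the other way, starts between them, and the same peaks served both genes. The H3K27me3 peak lay in an intron of TRPM5 and shared only its end with the H3K4me3 peak. It was 1295 bp wide, against a median of 8930 bp in the kept H3K27me3 list. Kept H3K27me3 and H3K4me3 peaks occurred together at 77 coding genes, 0.382% of all. CTCF at the KCNQ1 promoter, with 4.82, was below the limits.

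Over the tiles of 1 Mb, kept H3K4me1 peaks covered a median of 11952 bp, and in the window they covered 99657 bp, which is 9.97%. Within the 404452 bp of KCNQ1, 11 kept H3K4me1 peaks covered 4.99% of the gene. The strongest CTCF peak inside it, chr11:2552392-2554597 in intron 2, had a fold enrichment of 20.3, and 95.6% of kept CTCF peaks were lower. It overlapped an H3K9Ac peak of 7.74 and an H3K4me1 peak of 8.73. Beyond it, between 2558016 and 2708971, no kept peak of any list was found over 150956 bp. The gap between kept CTCF peaks was longer, 350671 bp, and ran from this peak to CDKN1C. How often gaps of these lengths occur in the genome was not tested.

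KCNQ1OT1 (ENSG00000269821, minus strand) starts in intron 11 of KCNQ1 and had the marks of a mid-range promoter. Its H3K4me3 peak, chr11:2720053-2722237, had a fold enrichment of 21.7, higher than 45.6% of marked coding TSSs. H3K9Ac was 13.6, higher than 55.9%, and H3K4me1 was 4.74, higher than 52.0%. All 6 annotated starts lay inside these 3 peaks. Along the long RNA body, kept H3K4me1, the promoter peak included, covered 1.62% of the gene. It held 1 H3K36me3 peak of 2.72, below the limits. CTCF at the start, with 3.72, was also below the limits.

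CDKN1C (ENSG00000129757, minus strand), which encodes a cyclin-dependent kinase inhibitor, had the highest values at a canonical TSS among the 7 genes for all 3 active marks, although SLC22A18 and KCNQ1 had a higher H3K4me1 at another annotated TSS, 10.5 and 8.76. H3K4me3 was 26.2 and H3K9Ac 16.9, higher than 68.3% and 81.4% of marked coding TSSs. H3K4me1 was 8.74, higher than 98.1%. The H3K4me1 peak covered 100% of the gene and the H3K4me3 peak 83.6%. A CTCF peak of 8.18 lay inside the gene and ended 99 bp short of the canonical TSS.

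PHLDA2 (ENSG00000181649, minus strand), which encodes a pleckstrin homology domain protein that restrains placental growth, starts at 2950650, 650 bp past the end of the window, and its peaks cross that end. Its H3K4me3 was 24.9, its H3K9Ac 15.8 and its H3K4me1 6.53, and each covered the whole gene. These were the widest peaks of the window for their marks, with 3153, 7262 and 10274 bp. A CTCF peak of 13.5 and 2678 bp lay over the TSS, and 98.5% of kept CTCF peaks were narrower.

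SLC22A18 (ENSG00000110628, plus strand), which encodes a membrane transporter, had a low H3K4me3 of 13.4 beside an H3K4me1 of 7.72. The first was higher than 12.5% of marked coding TSSs and the second higher than 95.4%. H3K9Ac was 12.2, and the CTCF list had no peak at the TSS. H3K4me1 covered 50.5% and H3K9Ac 35.4% of the gene, with separate peaks inside it counted as well. The promoter peaks themselves ended 3152 bp (H3K4me1) and 2963 bp (H3K9Ac) past the TSS. Of its 13 start positions, 5 lay inside the H3K4me3 peak and the other 8 outside it.

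The order of H3K4me3 fold enrichment was CDKN1C, PHLDA2, KCNQ1OT1, KCNQ1, SLC22A18 and IGF2, from 26.2 to 10.02, and the median over marked coding TSSs was 22.5. For H3K9Ac it was CDKN1C, PHLDA2, KCNQ1OT1, SLC22A18, IGF2 and KCNQ1, from 16.9 to 8.48, and the median was 13.1. H3K4me1 followed another order, with CDKN1C first at 8.74, SLC22A18 second at 7.72 and KCNQ1OT1 last at 4.74. Without replicates no pair of neighbours in these orders can be called different.

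No exact match to either CTCF core was found in the promoters of the 7 genes, from 250 bases before to 50 after the canonical TSS. Over all 38864 such promoters 0.484% held the 12-base core and 0.139% the control-region core.

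Matches of the 12-base core within CTCF peaks of the window are shown for 3 peaks that differ in fold enrichment. The first is in KCNQ1 intron 2, the second in an exon of SLC22A18AS and the third in an intron of both KCNQ1 and KCNQ1OT1. The core is in capitals.
KCNQ1, chr11:2552775-2552812, minus strand: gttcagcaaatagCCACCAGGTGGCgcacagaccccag
SLC22A18AS, chr11:2909769-2909806, minus strand: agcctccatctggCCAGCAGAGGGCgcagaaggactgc
KCNQ1OT1, chr11:2713745-2713782, plus strand: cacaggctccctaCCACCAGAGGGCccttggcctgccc

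The peaks over these cores had fold enrichments of 20.3, 16.0 and 4.05, and the last was below the limits. The window held 9 matches to the 12-base core, of which 6 were in deposited and 5 in kept CTCF peaks. Of the 23 kept CTCF peaks 5 held it, 21.7% with a Wilson 95% interval of 9.66% to 41.9%, against 22.4% of the whole list. With 1 mismatch allowed the share was 16 of 23, 69.6%, against 65.9%. The control-region core was in 1 of 23, 4.35% with an interval of 0.772% to 20.99%, against 0.652% of the list. That 1 was the H19 peak, from whose region the core is known, so this share is no independent result. Intervals cover counting error only. The shares for the 12-base core were therefore close to those of the whole list. The strongest CTCF peak of the window, chr11:2187164-2187936 in TH, had a fold enrichment of 24.4, above 98.4% of the list, and held no exact match.

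Part of the CTCF peaks of the window lay with active marks. A kept H3K4me1 peak overlapped 12 of 23 of them, 52.2% with an interval of 33.0% to 70.8%, against 27.01% of the whole list. The window was itself rich in H3K4me1, with 99657 bp covered against a median of 11952 bp per tile. Its kept CTCF peaks were also wider, with a median of 913 bp against 739 bp. The part of both in this overlap was not tested. H3K4me3 overlapped 5 of 23, 21.7% with an interval of 9.66% to 41.9%, which holds the 11.9% of the whole list. These 5 CTCF peaks were wide, from 1638 to 2807 bp, and like most of the 23 held no exact match to either core. All 11 kept H3K4me3 peaks overlapped a kept H3K9Ac peak, against 95.3% of the list. Of the kept peaks, 28 of 40 for H3K4me1 and 18 of 23 for CTCF lay farther than 1000 bp from the canonical TSS of any coding or lncRNA gene, against 1 of 11 for H3K4me3. Over the whole lists the shares of such peaks were 65.8% for H3K4me1, 85.8% for CTCF and 11.7% for H3K4me3. That distal H3K4me3 peak, with 7.67, lay in an intron of SLC22A18AS, between CDKN1C and SLC22A18, in the stretch chr11:2911203-2914767 that had the highest H3K4me1 of the window, 12.6. H3K9Ac of 10.9 and CTCF of 13.2 overlapped it, so that all 4 marks met away from a canonical TSS. Another annotated start of SLC22A18AS, however, lay within 1000 bp of the H3K4me1 peak there.

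The neighbouring genes on the list for this region were found in 15 of 17 cases. Of these, 7 had a kept H3K4me3 peak at the TSS, 5 of 10 coding genes against 59.1% of all coding genes and 2 of 4 lncRNA genes against 19.5% of all lncRNA genes. The other 8, with INS, INS-IGF2, TH, TSPAN32 and C11orf21 among them, had none. The peaks counted for the 2 lncRNA genes, IGF2-AS and SLC22A18AS, were those of IGF2 and SLC22A18. TRPM5 was likewise counted with the KCNQ1 peak. MRPL23, a mitochondrial ribosomal protein gene next to H19, had the highest H3K4me3 and H3K9Ac of the window, 35.9 and 23.3. CD81 and TSSC4, in the middle of the window, had H3K4me3 of 29.2 and 30.2. ASCL2, a transcription factor of intestinal stem cells, had a low H3K4me3 of 7.60 with H3K9Ac of 8.26. The highest H3K36me3 peak of the window, 4.61 at TSSC4, and the others, over MRPL23, CD81, KCNQ1 and SLC22A18 and beside PHLDA2, were below the limits. Just past the window, NAP1L4, CARS1 and OSBPL5 had H3K4me3 of 32.7, 30.1 and 39.0. On the other side, LSP1 and TNNT3 had no kept H3K4me3 peak at the TSS. The TSS of TNNT3 lies outside the window and its 3′ end inside.

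Of the 15 genes listed for the insulin-like growth factor axis, 10 had a kept H3K4me3 peak at the TSS, 10 H3K4me1, 10 H3K9Ac, 5 CTCF and 1 H3K27me3. Over all coding genes the shares were 59.1%, 49.1%, 58.5%, 13.6% and 1.22%, so that the H3K4me3 and H3K9Ac counts were near the background. The receptors IGF2R and INSR had H3K4me3 of 33.8 and 30.3, and the signalling receptor IGF1R had 14.6. IGF2BP2, which encodes an IGF2 mRNA-binding protein, had 31.9. IGF1, the ligand related to IGF2, had no kept peak of any mark at its TSS. IGF2BP1 had the H3K27me3 peak, with 5.70. IGF2 itself, with 10.02, was thus lower than these receptors, but near IGFBP3 and IGFBP6 of the same list, with 10.7 and 11.3.

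The coding genes nearest in their pattern to each of the 6 members with marks at the canonical TSS, which leaves out H19, over the 6 lists, by the distance of log2(fold enrichment + 1), differed between members. IGF2 was nearest to GGTA1, KRTAP4-7 and MMP14, whose H3K4me3 ran from 9.93 to 10.7. KCNQ1 was nearest to TRPM5, which shares its peaks, and then to KLF14, and 45 coding genes, 0.223%, had its set of marks. KCNQ1OT1 was nearest to MTOR, TRIP11 and MRPL30, SLC22A18 to TMEM185B, ITPKA and TERT. CDKN1C was nearest to BACH1, ARHGEF17 and CCDC88C, and PHLDA2 to EHD1, AP3M2 and SYNJ2, and the set of marks of these 2 members, with CTCF, occurred at 1829 coding genes, 9.07%. The set of IGF2, KCNQ1OT1 and SLC22A18, the 3 active marks alone, was common, with 6748 coding genes, 33.5%.

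Marker promoters were read beside the label of the line, although their count was near the share over all coding genes. EPCAM, CDH1, CDX2, KRT8 and KRT18 had kept H3K4me3 at the TSS, 5 of 8 colon epithelial markers against 59.1% of all coding genes, while VIL1, KRT20 and LGR5 did not, and LGR5 had kept H3K27me3. Of 7 markers of blood, fibroblast and endothelial cells that were found, 1, COL1A1, had kept H3K4me3, against the same share. The number of reads behind each list is not given in the sources used here, so that a mark without a peak may have been below detection at this depth.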

How the data were processed

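Chromatin of HCT116 cells was precipitated and sequenced with 75-base reads per the labels, with molecular identifiers in the index that allow PCR duplicates to be recognised. Reads were aligned to hg19 with BWA 0.7.12 and peaks were called per library with MACS2 in broad mode at a cutoff of 0.1 (the submitters' processing notes also name MACS 1.4.2, SAMtools 0.1.19 and bcl2fastq 2.20.0.442). The deposited peak lists give for each peak a linear fold ratio over background, −log10 p and q values and a score, all made by the authors. No library was pooled, and read depth is unknown.

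Coordinates were written 1-based and peaks were joined by at least 1 bp of overlap to GENCODE 44 gene models lifted to hg19; 0 peaks ran past the ends of the 24 chromosomes. Python 3.11.15, numpy 2.4.6, scipy 1.17.1 and matplotlib 3.10.9 were used, and the counting steps were tested on simulated data. Shares carry Wilson 95% intervals. The canonical TSS is that of the transcript tagged canonical. Sequences were read from the GRCh37 genome. The genes named are the 7 members, fixed lists of neighbours, flanks, insulin-like growth factor genes and cell type markers, the highest and widest peak of each mark, and the 3 coding genes nearest in pattern, 1 of which is not reported here. Members and lists were chosen with earlier results of these data known. MIR675 and CDKN1C-AS1 of the neighbours and PECAM1 of the markers were not matched to the annotation.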

Additional observations from a re-analysis of the deposited data

How the results depend on the processing

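Of 125 values recomputed under alternatives, 99 stayed within 1.5 times of the reported value and 26 moved. Some could not move, as an H3K4me1 fold limit raised 1.5 times could drop no peak when the lowest kept one was 3.87. With the limits swapped between the groups of marks, H3K4me1 had 12 peaks over 48.1 kb and 3 genes with a peak at the TSS, H3K27me3 had 0 peaks over 0.0 kb at 0 genes, and H3K36me3 had 2 peaks over 10.5 kb. With all deposited peaks, H3K9Ac had 33 over 69.1 kb, H3K27me3 18 over 24.6 kb, H3K36me3 8 over 31.5 kb, and 5 genes had a CTCF peak. With a q-value under 0.01 and a fold over 2 for every mark, H3K9Ac had 25 peaks, H3K27me3 4 over 7.69 kb, H3K36me3 5 over 23.9 kb, and 5 genes had CTCF. With the window moved down by 100000 bp, H3K4me3 had 7 peaks. Within 500 bp of the TSS, 0 genes had H3K27me3, and with the TSS of any transcript 4 had CTCF. The CTCF peaks between the genes numbered 5 from the H19 3′ end to the IGF2 5′ end, and 3 from the most common H19 5′ end, an alternative chosen after seeing the data. The core with 1 mismatch was in 16 peaks. The H3K27me3 and H3K36me3 counts rest on the limits. No paired analysis was possible because there was a single library for every antibody.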
